A study of Mus musculus with 54 samples.

Results

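The protamines (Prm1, Prm2), the protamine cluster gene Prm3, the transition proteins (Tnp1, Tnp2) and the spermatid linker histones (Hils1, H1fnt) were followed through both count tables and the peak lists of the study. The 7 genes were taken by symbol and all 7 were found among the 23284 genes of each count table. All mice were C57BL/6 males of 3 months that differed in the dose of CTCF, an insulator protein, and of its testis-specific paralog BORIS (gene Ctcfl). They had both genes intact (WT), lacked 1 Ctcf allele (CTCF HET, genotype Ctcf+/-), lacked both Boris alleles (BORIS KO, genotype Boris-/-) or combined these losses (compound mutant, CM, genotype Ctcf+/-Boris-/-, called DKO in the labels), carrying knockout alleles of these genes. The 12 testis libraries, 3 per genotype, came from germ cell-enriched suspensions pooled from 4 mice each and were depleted of rRNA. The 12 round spermatid and 11 spermatocyte libraries (3 per genotype, 2 for WT spermatocytes) were poly(A)-selected RNA of elutriated and sorted cells, also from preparations of 4 mice; nothing says that these replicates were separate preparations, so their p-values may measure technical spread. Peak lists of CTCF, RNA polymerase II (Pol2) and H3K4me3 in WT and CM testis, and of BORIS in WT testis, were read at the loci of the 7 genes.

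As round spermatids elongate, most of their histones are removed, first for transition proteins and then for protamines, small basic proteins that pack sperm DNA tightly. The transcripts are made in round spermatids, stored as untranslated ribonucleoprotein particles and translated later. Hils1 and H1fnt encode linker histones of the spermatid nucleus, while Prm3 is an intronless gene of the protamine cluster that encodes an acidic protein.

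In mm9, Prm1 (16:10796419-10796979, 2 exons), Prm2 (16:10791476-10792198, 2 exons), Prm3 (16:10790600-10791006, 1 exon) and Tnp2 (16:10788029-10788748, 2 exons) lie in this order on the minus strand of chromosome 16, with Socs1 next. The starts of Prm2, Prm3, Tnp2 and Socs1 lie 4.78, 5.97, 8.23 and 11.35 kb downstream of that of Prm1. Tnp1 lies alone on chromosome 1 (73061657-73062473, minus strand, 2 exons), and H1fnt on chromosome 15 (98086413-98087738, minus strand, 1 exon). Hils1 (chromosome 11, 94828975-94829770, plus strand, 1 exon) lies inside an intron of Sgca, which runs on the opposite strand. Whether counting used strand is not given in the sources used here. Without it, reads of unspliced Sgca that cross Hils1 cannot be told apart from those of Hils1, while spliced Sgca reads lie outside Hils1. Sgca had 3.64 to 14.4 CPM against 290 to 1127 for Hils1 in the testis libraries. In WT round spermatids it had 4.26 to 5.83 CPM, and in WT spermatocytes, at 14.8 and 15.5 CPM, it stood above Hils1 (1.51 and 1.76).

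The bases just upstream of the starts are shown because the genes share letters there that the choice of genes did not use. All 7 genes were matched in the RefSeq promoter table (GRCm38.p6, H1fnt as H1f7). The palindrome TGANNTCA, the outer letters of a cAMP-response element, was found in the 150 bases before the start of Prm1, Prm3 and Tnp1, and in 8.37% of 32851 promoters. A TATATA was found on the coding strand in Prm2 and Tnp2 (2.97% of promoters) and a TTAAATA in Tnp1 (1.06%). None of the 7 held TATAAA (4.84%) or, on either strand, TGACG (13.3%), and Hils1 and H1fnt held none of the 5 motifs searched. These are matches of letters in this window only, and no overlap between motifs was seen among the printed matches. The 5 promoters with a match follow, 5′ to 3′ on the gene's strand and ending at the base before the start, with matches in capitals (GRCm38.p6 coordinates, all on the minus strand).
Prm1 promoter, chr16:10796824-10796973: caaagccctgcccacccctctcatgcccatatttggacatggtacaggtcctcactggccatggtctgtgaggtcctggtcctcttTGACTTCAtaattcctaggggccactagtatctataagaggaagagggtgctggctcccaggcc
Prm2 promoter, chr16:10792106-10792255: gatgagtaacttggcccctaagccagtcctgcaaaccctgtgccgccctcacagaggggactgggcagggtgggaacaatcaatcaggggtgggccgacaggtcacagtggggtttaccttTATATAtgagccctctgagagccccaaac
Prm3 promoter, chr16:10790915-10791064: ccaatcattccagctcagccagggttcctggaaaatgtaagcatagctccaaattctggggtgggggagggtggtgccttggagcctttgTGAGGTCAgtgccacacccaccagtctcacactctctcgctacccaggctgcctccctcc
Tnp1 promoter, chr1:73015900-73016049: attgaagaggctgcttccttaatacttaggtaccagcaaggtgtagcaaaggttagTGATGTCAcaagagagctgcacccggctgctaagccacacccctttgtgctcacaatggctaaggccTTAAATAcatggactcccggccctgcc
Tnp2 promoter, chr16:10788656-10788805: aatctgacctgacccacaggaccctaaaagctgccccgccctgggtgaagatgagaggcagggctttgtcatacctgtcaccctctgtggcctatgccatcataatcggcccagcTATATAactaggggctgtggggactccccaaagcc

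Within these sequences TGANNTCA stood 64 to 57 bases upstream of the start in Prm1, 60 to 53 in Prm3 and 94 to 87 in Tnp1. The TATATA stood 29 to 24 bases upstream in Prm2 and 35 to 30 in Tnp2, and the TTAAATA 27 to 21 bases upstream in Tnp1.

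The testis libraries held 10437683 to 42055813 counts, the round spermatid libraries 47740650 to 98545423 and the spermatocyte libraries 53337530 to 88946702. Levels are given as CPM, each gene's count relative to the TMM-scaled library size. As a check of the labels, WT testis had 42.5 ± 3.89 CPM of Ctcf (SD, n = 3), CTCF HET had 26.7 ± 4.02, BORIS KO had 34.7 ± 3.34 and CM had 26.1 ± 1.81. In round spermatids labelled CM it was 172, 44.6 and 39.5 CPM against 29.4 to 48.7 in WT, and in spermatocytes labelled CM 85.9, 34.03 and 33.03 against 33.3 and 35.2. In round spermatids labelled CTCF HET it was 33.4, 21.6 and 24.6 CPM, overlapping WT, and in spermatocytes labelled CTCF HET 44.4, 52.4 and 32.3 CPM. Cells labelled BORIS KO had 24.4 to 29.0 CPM in round spermatids and 29.9 to 31.8 in spermatocytes, below every WT library of the same cells. Ctcf was thus not lower in the cell libraries labelled CM or in the spermatocytes labelled CTCF HET, which are named by these labels below, and replicate 1 of each cell type labelled CM stood apart. Ctcfl had at most 18 counts per testis library. In round spermatids it had 174 to 252 counts in WT (3.78 ± 1.19 CPM, SD, n = 3), 149 to 184 in the libraries labelled BORIS KO (2.15 ± 0.217 CPM) and 73 to 204 in those labelled CM, so that reads of the gene were still counted there. Which part of Ctcfl was deleted, and which part was counted, is not given in the sources used here, so this gene does not check the labels.
The summed level of 7 spermatocyte markers was lower in spermatocytes (3253 and 3719 CPM) than in round spermatids (4050 to 4215) for WT. It was higher in spermatocytes for CTCF HET (4727 to 4986 against 2711 to 3394) and BORIS KO (2454 to 2625 against 2096 to 2125), and overlapped for CM (4189 to 6079 and 3850 to 5124). The 9 late spermatid markers tested summed to 58.0 and 62.1 CPM in WT spermatocytes against 3357 to 4750 in WT round spermatids. Somatic testis cell markers (8 genes) summed to at most 2.32 CPM in round spermatids and 14.1 in spermatocytes, against 369 to 562 CPM in WT testis.

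In WT testis the genes were among the most abundant transcripts of the library. Prm2 ranked between 2 and 7 of all genes by CPM, Tnp2 between 4 and 14 and Tnp1 between 6 and 18, while Prm3 ranked between 587 and 1237. Per kilobase of exon, Prm2 had the highest level (8669 ± 1749 CPM per kb, SD, n = 3), followed by Tnp1 (8220 ± 2406), Tnp2 (7214 ± 1468), Prm1 (4127 ± 3114), Hils1 (1252 ± 199), H1fnt (806 ± 86.0) and Prm3 (685 ± 344). Prm2, Tnp1, Tnp2 and Prm1 did not differ beyond their spread, nor did H1fnt and Prm3, whereas Hils1 stood above H1fnt by more than both SDs. The same 3 genes, Hils1, H1fnt and Prm3, closed the order in every genotype of testis.

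The first question was whether loss of BORIS together with 1 Ctcf allele changed this set. In CM testis, 3 of the 7 genes were lower than in WT at an adjusted p below 0.05 (edgeR quasi-likelihood test on counts, Benjamini-Hochberg over 16378 genes), namely Prm2, Prm3 and H1fnt, and 0 were higher. Among all genes tested, 8.8% were lower and 16.4% higher. The estimates of all 7 genes were negative, with a median of -0.94 on the log2 scale against 0.00 over all genes.
Prm2, the more abundant of the protamines, had 5703, 4147 and 6224 CPM in WT replicates 1 to 3 and 1832, 1975 and 2984 CPM in CM. Every CM library lay below every WT library, and the log2 fold change was -1.27 ± 0.31 (SE, adjusted p = 0.022, edgeR). Prm1 had 923, 1275 and 3610 CPM in WT and 116, 1181 and 1887 CPM in CM. Its groups overlapped widely, and the log2 fold change of -0.91 ± 0.86 did not pass the test (adjusted p = 0.443, edgeR).
Prm3 had 440, 198 and 198 CPM in WT and 88.7, 121 and 91.7 CPM in CM, without overlap (-1.48 ± 0.34, adjusted p = 0.0198, edgeR).
Tnp1, the smaller transition protein, had 3328, 2489 and 4491 CPM in WT and 604, 2740 and 3477 CPM in CM. Only CM replicate 1 lay below the WT range, and the change of -0.62 ± 0.56 did not pass (adjusted p = 0.428, edgeR). Tnp2 had 3230, 3826 and 4825 CPM in WT and 1135, 2778 and 2711 CPM in CM. All CM values were below all WT values, yet the change of -0.87 ± 0.39 did not pass (adjusted p = 0.124, edgeR).
Of the linker histones, H1fnt had 1096, 944 and 1167 CPM in WT and 170, 539 and 486 CPM in CM, and fell (-1.45 ± 0.42, adjusted p = 0.0367, edgeR). Hils1 had 1092, 1084 and 814 CPM in WT and 290, 643 and 651 CPM in CM, also without overlap, at -0.94 ± 0.35 (adjusted p = 0.076, edgeR).

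**Figure D1:**
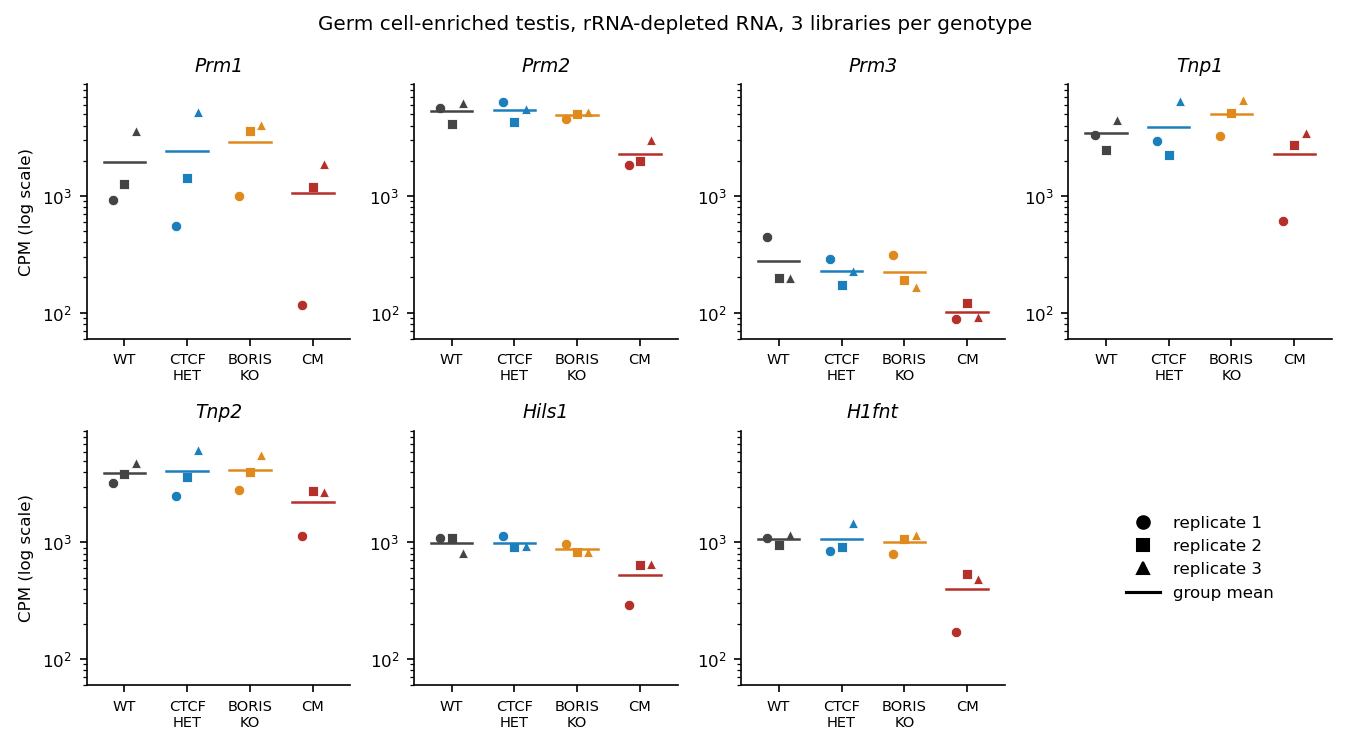
Level of each of the 7 genes in CPM (log axis) in the 12 testis libraries, by genotype, with symbols for replicates 1, 2 and 3 and a line for the group mean. The CM libraries of Prm2 (1832 to 2984 CPM), Prm3 (88.7 to 121) and H1fnt (170 to 539) sit below the libraries of all other genotypes, and replicate 1 is the lowest CM library of Prm1 and Tnp1.

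In all genotypes testis replicate 1 deviated apart from replicates 2 and 3, which were not told apart from each other. For replicates 2 and 3 the block and the ratios below therefore follow the label only. With the replicate number as a block 5 genes were lower in CM, against 19.2% of all genes lower. Tnp2 (-0.97, adjusted p = 0.0245, edgeR) and Hils1 (-1.03, adjusted p = 0.0202) joined the 3 above. Divided by the WT library of the same number, CM replicates 1, 2 and 3 had 0.321, 0.476 and 0.479 of the Prm2 level and 0.201, 0.61 and 0.464 of the Prm3 level. The same ratios were 0.126, 0.927 and 0.523 for Prm1, 0.182, 1.1 and 0.774 for Tnp1, 0.351, 0.726 and 0.562 for Tnp2, 0.266, 0.593 and 0.8 for Hils1 and 0.155, 0.571 and 0.416 for H1fnt. Replicate 1 thus held the lowest of the 3 ratios for every gene. The 3 calls rested on few libraries. Without WT replicate 1 only Prm3 was called (2.78% of all genes lower). Without WT replicate 2, WT replicate 3 or CM replicate 3 none was (0.042%, 0.0118% and 0.012% of all genes lower). The loss of calls was thus shared by all genes and is not particular to the set. Leaving out replicate 1 of both genotypes, an alternative added after seeing the data, left Prm2, Prm3 and H1fnt called (12.9% of all genes lower).

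Other genes of the same stage moved with them in CM testis. Of 9 late spermatid markers tested, 7 were lower and 0 higher (median -1.54 against 0.00 over all genes), among them Gapdhs, a sperm glycolytic enzyme (-1.52, adjusted p = 0.0151, edgeR), Fscn3, an actin-bundling protein (-1.74, adjusted p = 0.0166), and Spata3 (-1.76, adjusted p = 0.0181). Of 10 early round spermatid markers 5 were lower and 0 higher (median -0.88), among them Izumo1, the sperm receptor for the egg membrane (-1.01, adjusted p = 0.0228).
Of 14 genes for transcription, storage and translation of spermatid mRNA, 5 were lower and 0 higher (median -0.83), including Sox30, a transcription factor of spermiogenesis (-1.22, adjusted p = 0.0159, edgeR), Kif17, a motor protein that binds a CREM coactivator (-1.22, adjusted p = 0.0166), and that coactivator, Fhl5 (-1.24, adjusted p = 0.0209). Of 12 genes for histone eviction and spermatid histone variants 2 were lower and 0 higher (median -0.51), Psme4 (-0.90, adjusted p = 0.0278), an activator of the proteasome, and H2afb1 (-1.38, adjusted p = 0.0326), an H2A variant.
Estimates of the other linker histones in testis mostly went the opposite way, and not in CM alone, though only CM against WT had calls. In BORIS KO testis 0 of 8 tested were called, with a median of 1.17 and 0 negative estimates. In CTCF HET 0 of 7 were called, with a median of 0.49 and 0 negative. CM against BORIS KO gave a median of 0.281, with 3 of 8 negative. The rest of this paragraph is for CM against WT, where 1 of 8 estimates was negative. Of 8 tested, 5 were higher in CM and 0 lower (median 1.74), among them H1f0 (1.81, adjusted p = 0.0154, edgeR), Hist1h1a (1.68, adjusted p = 0.0154) and Hist1h1e (1.93, adjusted p = 0.0192).

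Markers of other cells moved in the same libraries. Of 8 somatic testis cell markers, 6 were higher in CM testis and 0 lower (median 1.61), including the steroidogenic enzyme genes Cyp17a1 and Cyp11a1, and their summed level was 1776 to 3443 CPM, while WT had 369 to 562, CTCF HET had 454 to 740 and BORIS KO had 684 to 1421. Of 7 spermatogonial markers 2 were higher, and of 7 spermatocyte markers 0 were called. In bulk samples, fewer cells of a type and less RNA per cell cannot be told apart, and the part of the somatic markers in the lower levels of the 7 genes was not tested.
The summed level of the 7 genes was 13960 to 21330 CPM in WT testis and 4236 to 12290 CPM in CM. That of the 9 late spermatid markers was 11860 to 15480 CPM in WT and 2746 to 6475 CPM in CM. Divided by the late spermatid sum of the same library, the 7 genes gave 0.998 to 1.38 for WT, 1.04 to 1.74 for CTCF HET, 1.496 to 1.67 for BORIS KO and 1.54 to 2.03 for CM. Set against the 10 early round spermatid markers, the ratios of WT (5.37 to 8.33) and CM (4.61 to 8.09) overlapped.

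**Figure D2:**
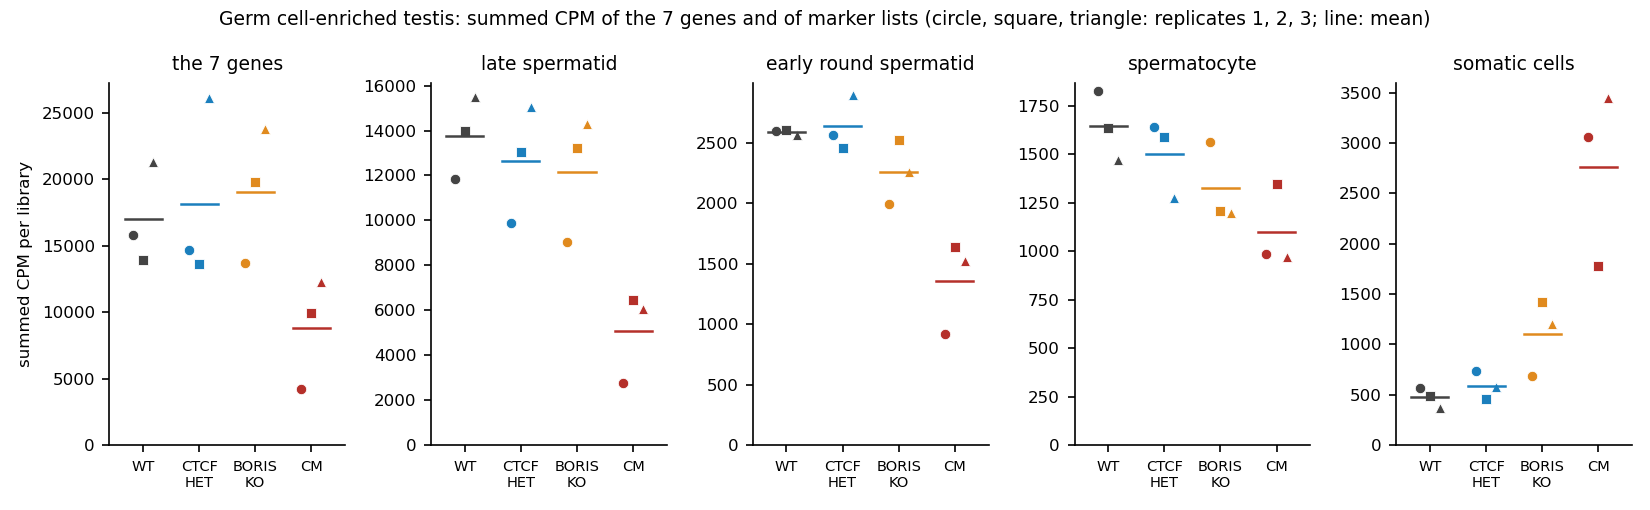
Summed CPM (linear axis) of the 7 genes and of late spermatid, early round spermatid, spermatocyte and somatic cell markers in each testis library, by genotype, with a line for the mean. CM lies lowest for the 7 genes (4236 to 12290 CPM) and for late spermatid markers (2746 to 6475), and highest for somatic markers (1776 to 3443).

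A single change in CTCF or BORIS was examined next. In CTCF HET testis 0 of the 7 genes passed the edgeR test in either direction (0% of all genes lower, 0.00621% higher), with 0 at an unadjusted p below 0.05 and 0 by DESeq2. Estimates ran from -0.25 ± 0.30 (Prm3) to 0.33 ± 0.89 (Prm1). In BORIS KO testis 0 passed as well (0.0489% of all genes lower, 0.00612% higher), again with 0 at an unadjusted p below 0.05 and 0 by DESeq2, and estimates ran from -0.32 ± 0.31 (Prm3) to 0.55 ± 0.64 (Prm1). Leaving out 1 library at a time turned the sign of Prm1 (-1.02 to 1.21) and Prm3 (-0.42 to 0.15) in CTCF HET and of Prm3 in BORIS KO (-0.60 to 0.14).
CM against BORIS KO gives the effect of 1 Ctcf allele where BORIS is absent. All 7 estimates were negative, from -1.47 ± 0.85 (Prm1) to -0.74 ± 0.35 (Hils1), and 0 passed the edgeR test (0% of all genes lower, 0.006% higher), with 3 at an unadjusted p below 0.05 and 3 called by DESeq2 (Prm2, Prm3 and H1fnt, against 1.56% of all genes lower). With the replicate number as a block 5 were lower (Prm1, Prm2, Prm3, Tnp1 and H1fnt, against 3.36% of all genes), with estimates from -1.95 (Prm1, adjusted p = 0.0316) to -1.14 (Prm3, adjusted p = 0.0394). Without replicate 1 of both genotypes, an alternative added after seeing the data, Prm1 and H1fnt were called (1.75% of all genes lower). These calls share the CM libraries with the comparison to WT.
Whether CM differed from the sum of the single changes on the log scale was tested as an interaction. All 7 estimates in testis were negative (-1.75 ± 1.32 for Prm1 to -0.72 ± 0.39 for Hils1), and 0 passed (0% of all genes in either direction), with Prm2 (-1.16 ± 0.36) and H1fnt (-1.36 ± 0.53) at an unadjusted p below 0.05 and 0 called by DESeq2.

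The balance of the protamine transcripts followed the replicate number more than the genotype. The count of Prm1 relative to Prm3 was 1.31 to 3.18 (median 2.01) in the 4 testis libraries of replicate 1 and 6.42 to 24.5 (median 18.5) in the 8 libraries of replicates 2 and 3. Prm1 relative to Prm2 was 0.0634 to 0.22 in replicate 1 and 0.307 to 0.948 in the others. These ranges did not overlap although each holds all 4 genotypes, while Tnp1 relative to Tnp2 did overlap (0.532 to 1.19 and 0.611 to 1.28). The replicate 1 libraries were also the deepest of each genotype (27558314 to 42055813 counts against 10437683 to 17383794), and the part of depth in the ratios was not tested.
Across the 12 testis libraries, within genotype, the log2 levels of Prm1 and Tnp2 (r = 0.971), Tnp1 and H1fnt (0.961) and Prm1 and H1fnt (0.923) moved most closely together. Prm3 gave r = 0.103 with Prm2 and -0.335 with Tnp2, its neighbours in the cluster, and -0.309 with Prm1. These are descriptions over 12 points that share the replicate structure. The genes outside the set whose log2 CPM followed the mean of the 7 most closely over the 12 libraries, of 17185 compared, were 1700042G07Rik (r = 0.991), Rabepk (0.983), Macrod1 (0.981), Mbd2 (0.977) and Wnt3 (0.974).

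The sorted cells show where the transcripts appear. In WT, all 7 genes were higher in round spermatids than in spermatocytes and 0 were lower (edgeR, 35.8% of all genes higher, 34.2% lower). The same held in CTCF HET (29.7% higher, 23.9% lower), BORIS KO (41.7% and 41.6%) and the libraries labelled CM (16% and 11.9%). In WT the log2 fold change ran from 3.75 ± 0.13 (Tnp2, adjusted p = 4.02e-07) to 5.59 ± 0.29 (Prm3, adjusted p = 2.7e-06), and in the libraries labelled CM from 2.30 ± 0.59 (Tnp2, adjusted p = 0.0235) to 3.56 ± 0.68 (Prm3, adjusted p = 0.00767), against all-gene medians of 0.02 and 0.13. In the libraries labelled CM the count was 3 without spermatocyte replicate 1 (9.26% of all genes higher) and 4 without spermatocyte replicate 2 (8.83%). Prm1 in WT was 105, 205 and 192 CPM in round spermatids and 6.51 and 6.10 CPM in spermatocytes. H1fnt, the lowest of the set per length, was 39.3, 35.0 and 37.0 CPM in round spermatids and 1.196 and 1.28 CPM in spermatocytes, no more than 97 counts per WT library.
Round spermatids of the sorted fraction held the set in another order than testis. Per kilobase of exon Prm1 led (357 ± 116 CPM per kb, SD, n = 3), then Tnp1 (255 ± 51.1), Prm3 (254 ± 75.1), Prm2 (174 ± 1.24), Tnp2 (102 ± 4.09), Hils1 (61.5 ± 10.2) and H1fnt (27.98 ± 1.59). Prm1, Tnp1 and Prm3 did not differ beyond their spread. The mean CPM of WT testis was 2.7 times that of WT round spermatids for Prm3, 11.6 times for Prm1, 20.4 for Hils1, 28.8 for H1fnt, 32.3 for Tnp1, 49.8 for Prm2 and 70.5 for Tnp2. In all, the 7 genes took 1.28% to 2.05% of the counts in WT testis and 0.0526% to 0.0594% in WT round spermatids. The preparations differ in cells, RNA selection (rRNA-depleted against poly(A)), sequencer and aligner at once, which cannot be told apart, so no test was made.

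**Figure D3:**
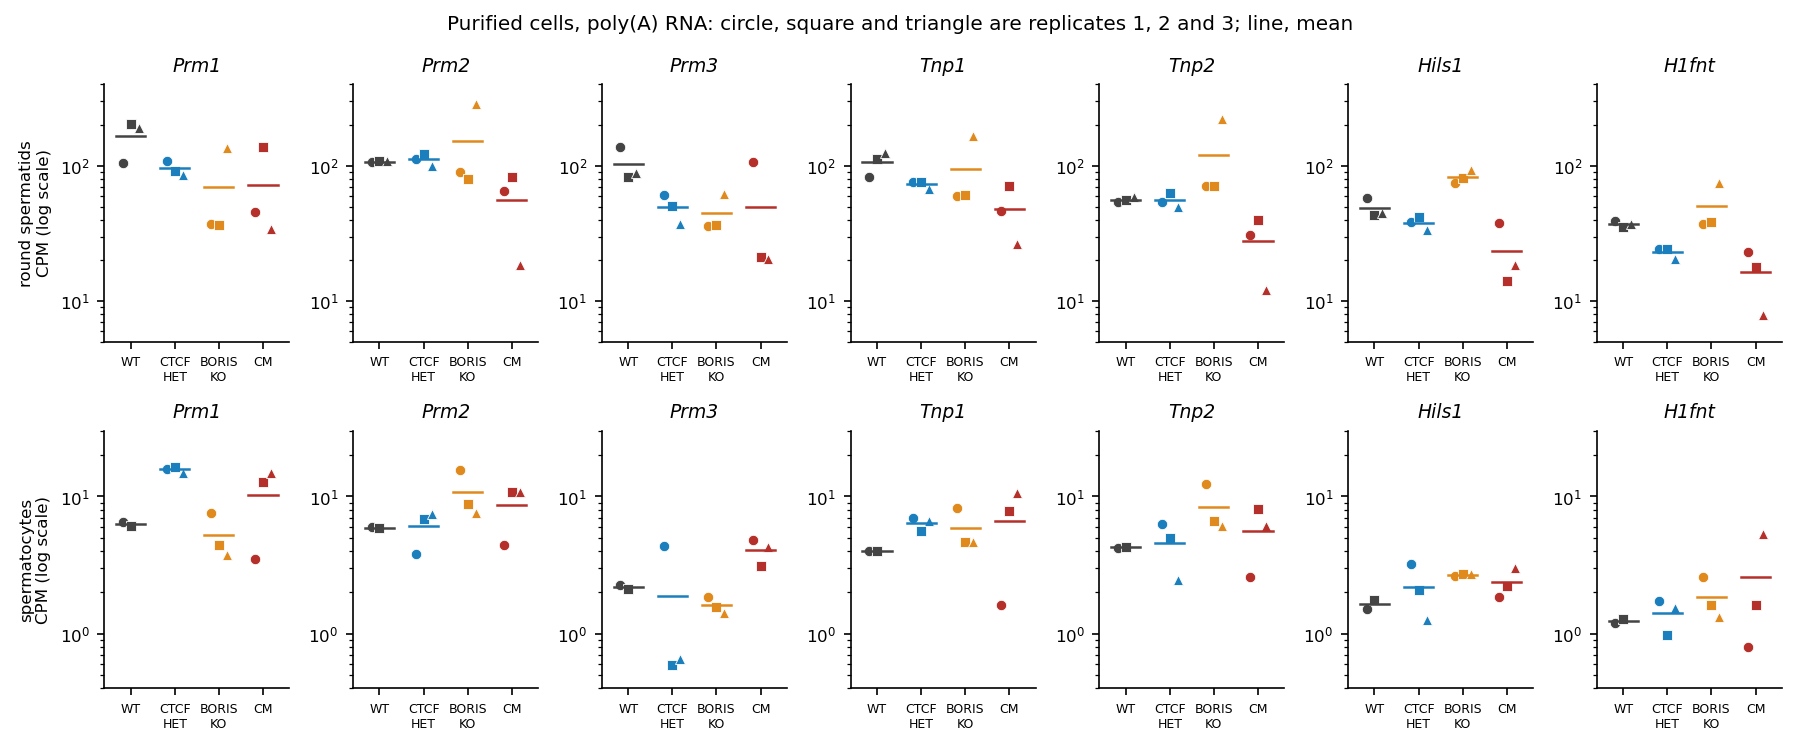
Level of each gene in CPM (log axes, different ranges) in sorted round spermatids (upper panels) and spermatocytes (lower panels), by genotype, with a symbol per replicate and a line for the mean. Round spermatids sit above spermatocytes for every gene, BORIS KO replicate 3 stands high for Prm1, Prm2, Tnp1, Tnp2 and H1fnt in round spermatids, and the libraries labelled CM scatter widely.

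Within round spermatids the mutants differed from one another. The 7 genes summed to 584 to 653 CPM in WT and 395 to 476 CPM in CTCF HET. In BORIS KO the sums were 406, 407 and 1041 CPM, replicate 3 standing apart, and in the libraries labelled CM they were 138 to 387 CPM. The 9 late spermatid markers summed to 3357 to 4750 CPM for WT, 1672 to 2002 for CTCF HET, 1469 to 2213 for BORIS KO and 1665 to 2101 for the libraries labelled CM, and their part in the changes below was not tested.
In CTCF HET round spermatids 4 of the 7 genes were lower than in WT and 0 higher (12.8% of all genes lower, 9.51% higher). Prm3 fell most, from 139, 83.0 and 88.5 CPM in WT to 61.4, 50.6 and 37.4 CPM (-1.04 ± 0.22, adjusted p = 0.0148, edgeR). H1fnt went from 39.3, 35.0 and 37.0 CPM to 24.1, 24.1 and 20.6 CPM (-0.67 ± 0.12, adjusted p = 0.00658), without overlap. Prm1 (-0.79 ± 0.23, adjusted p = 0.0377) and Tnp1 (-0.52 ± 0.15, adjusted p = 0.041) were also lower. Tnp2 (54.1, 55.96 and 58.5 CPM in WT, 54.1, 63.3 and 49.4 CPM in CTCF HET) lay at 0.00 ± 0.12. With all 4 genotypes in 1 fit 0 of these calls remained, where the share of all genes is not given. The count was 2 without WT replicate 2, WT replicate 3, CTCF HET replicate 1 or CTCF HET replicate 3 (4.79%, 4.85%, 4.95% and 8.08% of all genes lower). It was 1, H1fnt, without CTCF HET replicate 2 (6.61% of all genes lower). Fewer of all genes were thus lower in these fits as well.

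In BORIS KO round spermatids 1 of the 7 genes was lower and 2 were higher, near the shares of all genes (29% lower, 26.8% higher), so the count is not a result about the set. Prm3 fell to 35.7, 36.8 and 62.3 CPM (-1.17 ± 0.24, adjusted p = 0.00284, edgeR). Hils1 rose from 58.3, 43.4 and 45.1 CPM in WT to 74.7, 81.9 and 93.4 CPM (0.80 ± 0.13, adjusted p = 0.000744), and Tnp2 from 54.1, 55.96 and 58.5 CPM to 71.3, 71.5 and 221 CPM (1.13 ± 0.38, adjusted p = 0.0331). Every BORIS KO library lay above every WT library for both genes. Sgca, which overlaps Hils1 on the other strand, was higher as well, from 4.26 to 5.83 CPM in WT to 7.74 to 8.24 CPM (0.72 ± 0.16, adjusted p = 0.00473, edgeR), and its part in the Hils1 call was not tested. Tnp2 did not pass by DESeq2 (adjusted p = 0.0713) or without any 1 of the WT libraries. Without BORIS KO replicate 3 the count was 5, Prm1, Prm3 and Tnp1 lower and Tnp2 and Hils1 higher, where 26.1% of all genes were lower and 23.4% higher.

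For round spermatids labelled CM, all 7 estimates against WT were negative, from -1.09 ± 0.38 (H1fnt) to -0.84 ± 0.49 (Prm2), with a median of -1.003 against 0.00 over all genes. None passed (edgeR, 0% of all genes lower, 0.00654% higher), with 3 at an unadjusted p below 0.05 (Tnp1, Hils1 and H1fnt) and 0 by DESeq2. Hils1 was 37.8, 14.2 and 18.6 CPM and Tnp2 30.8, 39.9 and 12.1 CPM in these libraries, all below WT. Prm3, at 107, 21.4 and 20.4 CPM, overlapped WT only through replicate 1, the library with the high Ctcf. Without it Prm3 and Hils1 were lower (3.15% of all genes lower). With all 4 genotypes in 1 fit Hils1 and H1fnt were lower. The share of all genes is not given for that fit, so the count shows only how the calls depend on the processing and is not a result about the set. These libraries also stood apart as a group. They detected 14932 to 16670 genes against 17504 to 17985 in WT, correlated with one another at 0.827 to 0.921 (log counts) against 0.9739 to 0.9925 for WT, and held 34.0, 355 and 60.7 CPM of summed spermatogonial markers against 20.9 to 27.3. The part of these differences in the estimates was not tested.
Against BORIS KO, 3 genes were lower in round spermatids labelled CM (10.9% of all genes lower, 12.3% higher): Tnp2 (-2.14 ± 0.61, adjusted p = 0.0457, edgeR), Hils1 (-1.83 ± 0.38, adjusted p = 0.0222) and H1fnt (-1.63 ± 0.47, adjusted p = 0.0469). Sgca was lower there too (-1.64 ± 0.39, adjusted p = 0.0287, edgeR), and its part in the Hils1 call was not tested. The count was 0 without any 1 of the BORIS KO libraries or CM replicate 3. Without any 1 of the BORIS KO libraries 0% of all genes were lower and 0% higher, so those counts are not results about the set. The interaction of Ctcf heterozygosity and Boris knockout passed for Tnp2 (-2.15 ± 0.63, adjusted p = 0.019, edgeR) and Hils1 (-1.52 ± 0.41, adjusted p = 0.0117), against 18.4% of all genes below and 19.1% above 0. With such shares the count is not a result about the set. For these 2 genes the level was above WT in BORIS KO and below WT in the libraries labelled CM, with CTCF HET at 0.00 ± 0.12 for Tnp2 and -0.35 ± 0.14 for Hils1. Without CTCF HET replicate 2 only Hils1 was called, and without CM replicate 1 the count was 3 (25.7% of all genes below 0).

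In spermatocytes the levels of the set were low, and few genes passed the test. In the libraries labelled CTCF HET, Prm1 was higher, at 16.0, 16.5 and 14.7 CPM against 6.51 and 6.10 CPM in WT (1.33 ± 0.22, adjusted p = 0.0106, edgeR), the only gene of the 7 that passed (8.76% of all genes lower, 6.77% higher). The call was lost without either WT library or without CTCF HET replicate 2. The same libraries held more of the late spermatid markers (113 to 305 CPM against 58.0 and 62.1 in WT, with 3 of 8 tested higher, 0 lower and a median of 1.26) and of the early round spermatid markers (907 to 1035 CPM against 818 and 845, with 3 of 10 higher, 0 lower and a median of 1.42). They detected 12018 to 13406 genes against 17631 and 17683 in WT, and correlated with one another at 0.827 to 0.897 against 0.997. The part of spermatid RNA and of library quality in the Prm1 call was not tested. In BORIS KO, Hils1 rose from 1.51 and 1.76 CPM to 2.62, 2.71 and 2.71 CPM (0.71 ± 0.15, adjusted p = 0.00121) and Prm3 fell from 2.25 and 2.13 CPM to 1.86, 1.56 and 1.42 CPM (-0.44 ± 0.17, adjusted p = 0.0358), against 28.1% of all genes lower and 29.1% higher. These counts, 1 in each direction, lay below the shares of all genes. Sgca was also higher, from 14.8 and 15.5 CPM in WT to 21.0, 19.96 and 18.7 CPM (0.39 ± 0.08, adjusted p = 0.00125, edgeR). Sgca stood above Hils1 in level, and unspliced Sgca reads that cross Hils1 cannot be told apart from Hils1 reads. Hils1 is therefore uncertain in these libraries, and the part of Sgca was not tested. The Hils1 call held without each library in turn and by DESeq2, where Prm3 did not pass (adjusted p = 0.0802), and neither was called with all 4 genotypes in 1 fit. Only Hils1 was called without WT replicate 1, WT replicate 2 or BORIS KO replicate 2, and 5 genes were called without BORIS KO replicate 1 (2 lower and 3 higher, against 31.4% and 32.5% of all genes).
In spermatocytes labelled CM all 7 estimates were above 0, from 0.45 ± 0.47 (Tnp2) to 1.10 ± 0.79 (H1fnt), and 0 passed (edgeR, 0.224% of all genes lower, 0.38% higher), with 1 at an unadjusted p below 0.05 and 1, Prm3, called by DESeq2 (8.28% of all genes higher). Prm3 was 4.80, 3.13 and 4.28 CPM against 2.25 and 2.13 CPM in WT. Replicate 1, again the library with the high Ctcf, was the lowest of the 3 for Prm1, Prm2, Tnp1, Tnp2, Hils1 and H1fnt, and without it 4 genes (Prm1, Prm2, Tnp1 and Tnp2) were higher, against 17.9% of all genes. Against BORIS KO, Prm3 was higher in these libraries (1.36 ± 0.25, adjusted p = 0.00329, edgeR; 25.3% of all genes lower, 26.5% higher), and Prm1 as well without CM replicate 1 (28.8% of all genes higher). In spermatocytes the interaction of Ctcf heterozygosity and Boris knockout passed for 0 genes (1.74% of all genes below 0, 5.71% above), with 0 at an unadjusted p below 0.05 and 0 by DESeq2, and for Prm3 without CTCF HET replicate 1 (7.43% of all genes above 0).
Early round spermatid markers (727 to 859 CPM in the libraries labelled CM, 818 and 845 in WT) and late spermatid markers (70.9 to 302 CPM against 58.0 and 62.1) give the level of spermatid RNA in the same spermatocyte libraries. The interaction of the CM label with cell type was negative for all 7 genes, from -2.27 ± 0.87 (H1fnt) to -1.45 ± 0.66 (Tnp2). Of these, 0 passed (edgeR, 3.43% of all genes below 0, 0.0761% above), with 7 at an unadjusted p below 0.05. DESeq2 called 1, Hils1, a count without a share of all genes and so not a result about the set. The edgeR count was 2 without round spermatid CM replicate 1 (4.5% of all genes below 0) and 1 without spermatocyte CM replicate 1 (5.4%).

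**Figure D4:**
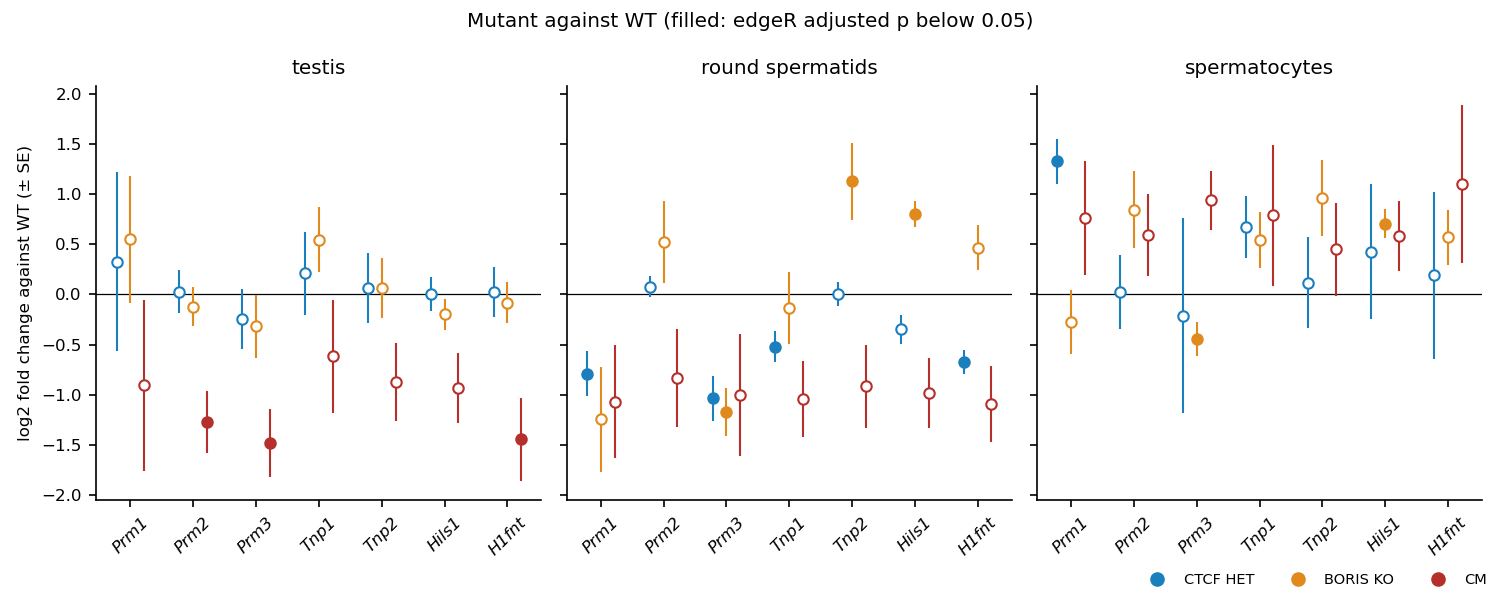
Log2 fold change (± SE) of each gene against WT in testis, round spermatids and spermatocytes for CTCF HET, BORIS KO and CM, filled where the edgeR adjusted p was below 0.05. All CM estimates lie below 0 in testis and round spermatids and above 0 in spermatocytes, and the filled points are Prm2 (-1.27), Prm3 (-1.48) and H1fnt (-1.45) in CM testis and 10 points of the single mutants in the cells.

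CTCF and BORIS binding was read from peak lists within 2 kb of each gene, 1 list per antibody and genotype, so that no error between replicates can be given. A CTCF peak was listed near 3 of the 7 genes in WT testis (Tnp2, Hils1 and H1fnt, against 48.9% of 22380 protein-coding genes) and near 2 in CM (Tnp2 and Hils1, against 32.5%). A BORIS peak was listed near 1, Tnp2 (21.5%). No CTCF or BORIS peak was listed within 2 kb of Prm1, Prm2, Prm3 or Tnp1.
From the gap beyond Tnp2 into Socs1 the WT list held 1 broad CTCF peak (16:10784334-10787047, height 3555, the 97.6th percentile of its list), with its summit inside Socs1. The CM list held separate narrow peaks, at 16:10786544-10786742 (height 222) between the genes and at 16:10785151-10785397 (height 418) within Socs1. WT BORIS peaks lay at both places (16:10786521-10786722, height 295, and 16:10785226-10785412, height 51). The heights of different lists are not on 1 scale. The Hils1 site lay in Sgca, with its summit 2794 bases downstream of the Hils1 start in WT (height 1313) and 2784 bases in CM (height 492). The WT peak over H1fnt (15:98086749-98087658) was low, with a height of 121, and no CM peak lay there.
Summit windows of 100 bases are printed for 3 places, because they show the letters at the sites listed in both genotypes (mm9, plus strand). Capitals mark the 12-base core of the CTCF motif, here on the minus strand, which 45.5% of the WT CTCF windows, 60.4% of the CM CTCF windows and 48.9% of the WT BORIS windows held on either strand.
CM CTCF summit between Tnp2 and Socs1, chr16:10786579-10786678: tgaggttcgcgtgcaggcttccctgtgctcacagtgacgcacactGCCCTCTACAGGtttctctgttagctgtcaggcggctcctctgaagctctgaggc
WT CTCF summit in the Socs1 intron, chr16:10785198-10785297: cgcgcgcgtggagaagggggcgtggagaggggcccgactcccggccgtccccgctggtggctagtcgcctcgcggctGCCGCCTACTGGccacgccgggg
WT CTCF summit by Hils1, chr11:94831719-94831818: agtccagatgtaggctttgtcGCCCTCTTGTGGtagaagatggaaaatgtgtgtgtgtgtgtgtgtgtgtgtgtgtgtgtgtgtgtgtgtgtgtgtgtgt

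The first core (16:10786624-10786635) also lay in the WT BORIS window, and the second (16:10785275-10785286) in the windows of the CM CTCF and WT BORIS peaks at Socs1. The window over H1fnt held none. Socs1 itself was low, with at most 25 counts in a testis library.

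Pol2 and H3K4me3 peaks were listed at all 7 genes in both genotypes (Pol2 46% of genes in WT and 52.7% in CM, H3K4me3 60.3% and 60.1%). A single Pol2 peak covered the whole cluster from Prm1 past Socs1, 16:10782181-10800875 in WT (18695 bp) and 16:10781093-10800781 in CM (19689 bp), each with a score of 3100. That score was shared by 209 WT and 168 CM peaks, Tnp1 among them in both lists, so the lists cannot rank these genes between genotypes. The Pol2 scores at the linker histones were 2404 in WT and 1202 in CM for Hils1 and 1916 and 930 for H1fnt. Scores of different lists are not on 1 scale either. Within the WT and CM lists, of 25192 and 28407 peaks, these peaks stood at percentiles 98.2 and 94.6 for Hils1 and 97 and 92.1 for H1fnt.
H3K4me3, a mark of active promoters, covered the starts of Prm2, Prm3, Tnp1, Hils1 and H1fnt in both lists. At Prm1 the nearest WT peak (16:10797106-10797937) began upstream of the start and no WT peak covered it, whereas a CM peak did (16:10796784-10797867, score 71.8). At Tnp2 a WT peak (16:10788079-10788742) covered 92.2% of the gene and ended just short of its start (10788748). A CM peak of 6499 bp covered the starts of Tnp2, Prm3 and Prm2 together. The part of peak width and of where peak edges were called in these contrasts was not tested. H3K4me3 scores at Hils1 were 1161 in WT and 790 in CM, and at H1fnt 1135 and 566, from 1 library each. The percentiles of these peaks in the WT and CM lists were 97.9 and 87.7 for Hils1 and 97.8 and 79.5 for H1fnt. Peaks over the other starts covered in both lists stood at 88.8 and 78.4 for Prm2, 83.7 and 78.4 for Prm3 and 65.3 and 91.3 for Tnp1. The WT list held 34347 peaks with a median score of 97.5 and the CM list 20432 with a median of 185. Percentiles of these lists are therefore not on 1 scale, and a lower one in CM is not particular to the linker histones.

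**Figure D5:**
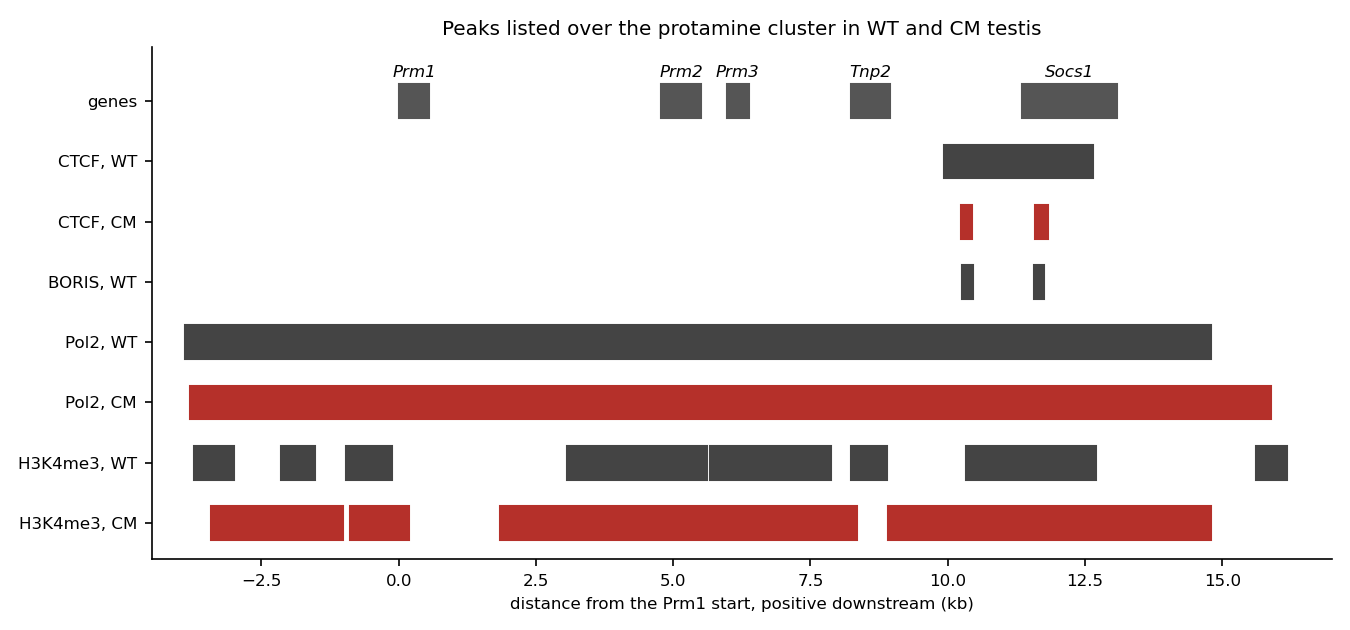
Positions of the genes and of listed peaks over the protamine cluster, as distance from the Prm1 start in kb (positive downstream), in WT (dark) and CM (red) testis. CTCF and BORIS peaks lie only in the gap from Tnp2 to Socs1 and over Socs1, from about the 10 kb mark, while 1 Pol2 peak spans all 5 genes in both genotypes.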

How the data were processed

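RNA was measured in 12 germ cell-enriched testis, 12 round spermatid and 11 spermatocyte libraries, and peaks in 7 lists. Per the labels and the study's methods, testis reads were Ion Proton single-end reads aligned to mm9 with TopHat2 and then Bowtie2 in local mode, and cell reads were HiSeq2000 single-end reads of 75 cycles aligned with STAR. The count tables hold raw counts of reads for each gene as deposited, for which the counting tool, annotation and use of strand are not given in the sources used here. The peak lists the authors deposited came from MACS, MACS2 and PeakSplitter, 1 per antibody and genotype, and CTCF and BORIS peaks have a height (signal) and Pol2 and H3K4me3 peaks a score.

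Counts were tested with edgeR 4.0.16 (limma 3.58.1, R 4.3.3) within each preparation, with filterByExpr (minimum count 10, minimum total count 15), TMM factors, the quasi-likelihood F test and Benjamini-Hochberg adjustment over all genes tested, at an adjusted p below 0.05. The threshold the authors used with DESeq2 (adjusted p 0.001, fold 2), DESeq2 1.42.0, other filters and scalings, a replicate block, 1 fit over all genotypes and each library left out were the alternatives. The fits were tested on simulated data. Same-numbered testis libraries correlated above 0.1 in their deviations in 18 of 18 pairs (0.12 to 0.63), against 4 of 18 in round spermatids and 1 of 15 in spermatocytes. Testis replicate 1 correlated below 0 with every library of another number and genotype. Pairs of replicate 2 with replicate 3 from different genotypes gave -0.013 to 0.408, overlapping same-numbered pairs of replicates 2 and 3 (0.12 to 0.42). The numbers thus set replicate 1 apart in testis but do not pair replicates 2 and 3. No library was merged, and 0 per-sample columns were left unused. Genes named were the 7 members, Ctcf and Ctcfl, Socs1 and Sgca, at most the 3 genes of each list with the smallest p in CM against WT testis, and the 5 genes most correlated with the members' mean. Members and lists were chosen with earlier results of these data known. The adjusted p of 0.05 without a fold limit was also set with such results known. An earlier pass had given no edgeR call in CM at the authors' threshold. Figures used Python 3.11.15, numpy 2.4.6 and matplotlib 3.10.9.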

Additional observations from a re-analysis of the deposited data

Results flagged for a closer look

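In round spermatids the interaction of Ctcf heterozygosity and Boris knockout was past the test for Tnp2 (-2.15 on the log2 scale, adjusted p = 0.019, edgeR) and Hils1 (-1.52, adjusted p = 0.0117). As 18.4% of all genes passed below 0 and 19.1% above, the count is not a result about the set. Ctcf itself was not below WT (29.4 to 48.7 CPM) in the round spermatids labelled CM (172, 44.6 and 39.5 CPM), and in testis no interaction passed for the 7 genes. In 3 further cases every sample of a mutant lay on one side of every WT sample in one preparation and on the other side in another, and the difference between preparations was not tested. The share of all genes with such a pattern was not computed, so this count is not a result about the set. The CM pair of round spermatids and spermatocytes, where the interaction was tested, was left out of the count. Hils1 had the pattern there too. Prm3 in libraries labelled CM was -1.48 against WT in testis (adjusted p = 0.0198, edgeR) and 0.94 in spermatocytes (0.102). Tnp1 in libraries labelled CTCF HET was -0.52 in round spermatids (adjusted p = 0.041, edgeR) and 0.67 in spermatocytes (0.192). Hils1 in libraries labelled CM was -0.94 in testis (adjusted p = 0.076, edgeR) and 0.58 in spermatocytes (0.306). None of the 3 spermatocyte differences passed the test, nor did Hils1 in testis.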

How the results depend on the processing

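With edgeR at the authors' threshold, which they applied to DESeq2, the count of called members was 0 for CM against WT in testis, for CTCF HET and BORIS KO against WT and CM against BORIS KO in both cell types, and for round spermatids against spermatocytes labelled CM. DESeq2 at that threshold, added after seeing the data, called 2 for CM against WT in testis (Prm2 and Prm3), 7 for round spermatids against spermatocytes labelled CM, 1 each for CTCF HET and BORIS KO in round spermatids (Prm3) and 0 for BORIS KO in spermatocytes, with 2, 1 and 1 for CM against BORIS KO in round spermatids (Hils1 and Tnp2) and spermatocytes (Prm3) and for CTCF HET in spermatocytes (Prm1). With a replicate block the counts were 5 for CM against WT and 5 for CM against BORIS KO in testis, 2 for CTCF HET and 1 for CM against BORIS KO in round spermatids, and 5 for BORIS KO in spermatocytes, and the block turned the sign of Prm3 in CM against BORIS KO in round spermatids (-0.34) and of Tnp1 (-0.11) and H1fnt (-0.0753) in CM spermatocytes. In the cells the numbers do not pair the samples, and in testis they do not tell replicates 2 and 3 apart. DESeq2 called 3 for CM against BORIS KO in testis, 1 for CM in spermatocytes and 1 for the interaction of CM and cell type. With all groups in 1 fit the counts were 1 for CM against BORIS KO in testis, 0, 1 and 2 for CTCF HET, BORIS KO and CM in round spermatids, and 0 for CTCF HET, BORIS KO and CM against BORIS KO in spermatocytes. Without replicate 1 of both genotypes, added after seeing the data, CM against BORIS KO in testis gave 2. Counts printed here without the share of all genes under the same setting show only how they depend on the processing. They are not results about the set. In the main fit for BORIS KO spermatocytes, 28.1% of all genes were lower and 29.1% higher. Within 1 kb, 0 members had a CM CTCF peak and 0 a BORIS peak, and among the upper 50% of heights 1 had a CM CTCF peak.

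Leaving out 1 library gave counts of 0 to 3 for CM against WT in testis. In round spermatids they were 1 to 4 (CTCF HET), 2 to 5 (BORIS KO), 0 to 2 (CM) and 0 to 3 (CM against BORIS KO), and in spermatocytes 0 to 1, 1 to 5, 0 to 4 and 1 to 2. They were 3 to 7 for round spermatids against spermatocytes labelled CM, 1 to 3 and 0 to 1 for the interactions in round spermatids and spermatocytes, and 0 to 2 for CM and cell type. Signs turned for Prm1 (-1.02 to 1.21) and Prm3 (-0.42 to 0.15) in CTCF HET testis, Prm3 in BORIS KO testis (-0.60 to 0.14), Prm2 in CTCF HET round spermatids (-0.0059 to 0.15), Prm3 in CM against BORIS KO round spermatids (-1.15 to 0.50), Prm3 in CTCF HET spermatocytes (-1.81 to 0.24) and the Prm3 interaction in round spermatids (-0.11 to 1.51). The cause was not tested. Of the single-gene values under all alternatives, 1106 kept direction and side of the threshold, 102 lost the call, 33 gained it and 13 turned sign, and of the counts and summaries 233 stayed near the reported value and 60 did not. Levels in spermatocytes rest on as few as 29 counts (Prm3 in the libraries labelled CTCF HET).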
